A study of Mus musculus with 10 samples.

Results

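The genes described here are 35 mouse genes of the integrated stress response and of amino acid synthesis and transport, most of them known targets of the transcription factor ATF4. They were taken by name from a list and matched to the 55359 gene identifiers of a count table. All 35 were found, and all 35 had enough reads to be tested among 15777 tested genes. They were measured by bulk RNA sequencing in T cells of pmel-1 mice. These mice carry a transgenic T cell receptor, mostly found on CD8 cells, for gp100, an antigen of melanoma. Spleen cells of pmel-1 mice were activated for 48 h with human gp100 and kept for another 48 h with human IL-2. Cells of 4 groups were then electroporated and cultured for 24 h before RNA was extracted. DRIL18 cells received mRNA for decoy-resistant IL-18, a form of the cytokine that its natural decoy receptor does not capture. IL12 cells received mRNA for single-chain IL-12 (scIL-12), and mixture cells received both. Mock cells are labelled as electroporated, and the labels do not name an mRNA for them. NoEp cells are labelled WT and were not electroporated. Each group has 2 libraries. The labels call them biological replicates without saying that they came from separate animals, so the p-values cover only the spread between libraries, which may be technical. The labels state neither the age of the mice nor whether animals were pooled.

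The integrated stress response starts when kinases that sense amino acid shortage, unfolded protein in the endoplasmic reticulum (ER), double-stranded RNA or lack of haem phosphorylate the translation factor eIF2. General protein synthesis then falls, while the Atf4 mRNA is translated better. ATF4 binds DNA together with partners of the C/EBP family and raises genes that make amino acids, import them and charge tRNA with them, as well as genes that slow growth or end the response. Activated T cells need large amounts of amino acids, and in them the growth kinase mTORC1 also drives ATF4 targets without eIF2 phosphorylation. Because ATF4 is controlled largely at translation, the mRNA levels reported here do not measure its protein.

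ATF4 and a C/EBP partner bind a composite DNA element, and the promoters of the member genes that hold its letters are shown here because that element is the one ATF4 is known to bind. RefSeq promoter windows on GRCm38.p6, a build other than the mm39 used for counting, were matched for 29 of the 35 genes, and the 250 bases before each start were searched on both strands for TGATGNAA, which reads TTNCATCA on the opposite strand. The letters occur in 7 of 29 member genes (24.1%) and in 1056 of 27025 genes with a window (3.91%). The stricter form TGATGCAA, which is contained in the first, occurs in 5 of 29 (17.2%) and in 248 of 27025 (0.918%). Because most members are known ATF4 targets, a higher share among them than among all genes is not an independent result. A match describes the letters only and was not tested for binding. In each sequence, written 5′ to 3′ on the strand of the gene, the capitals mark the match. Slc7a11 holds a pair of matches, at positions -66 and -47 from the start. The windows lie at chr3:50443617-50443715 (Slc7a11, minus strand), chr2:119351013-119351092 (Chac1, plus), chr7:126625537-126625616 (Nupr1, minus), chr6:7693210-7693268 (Asns, minus), chr19:27216784-27216863 (Vldlr, plus), chr11:120643808-120643887 (Pycr1, minus) and chr14:55540127-55540206 (Pck2, plus).
Slc7a11: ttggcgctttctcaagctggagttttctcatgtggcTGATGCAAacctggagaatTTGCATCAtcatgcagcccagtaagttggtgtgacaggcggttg
Chac1: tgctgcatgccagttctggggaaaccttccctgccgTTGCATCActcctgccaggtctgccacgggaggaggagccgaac
Nupr1: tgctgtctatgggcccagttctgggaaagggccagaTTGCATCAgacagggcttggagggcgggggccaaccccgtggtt
Asns: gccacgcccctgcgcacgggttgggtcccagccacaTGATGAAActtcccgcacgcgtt
Vldlr: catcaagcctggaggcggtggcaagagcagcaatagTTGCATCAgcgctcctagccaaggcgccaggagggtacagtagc
Pycr1: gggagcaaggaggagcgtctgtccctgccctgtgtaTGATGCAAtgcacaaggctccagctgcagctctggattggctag
Pck2: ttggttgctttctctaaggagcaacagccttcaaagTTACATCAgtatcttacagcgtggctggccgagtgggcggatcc

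The libraries hold between 31281944 and 35062545 counts. Markers of CD8 T cells were abundant, with all 7 genes present and a summed level of 4145 to 4200 CPM in Mock. CPM are counts scaled to a common library size with the TMM method. The same sum was 3819 to 3865 in DRIL18, 3430 to 3532 in IL12 and 2829 to 2832 in the mixture. Of the CD4 and regulatory T cell genes, Cd4 was at 4.58 and 5.47 CPM in Mock and 4.93 and 5.57 in the mixture, and Foxp3 at 1.10 and 0.952 in Mock and 0.0292 and 0.178 in the mixture. The 3 gamma-delta T cell genes summed to 99.8 to 102 CPM in Mock and 26.8 to 27.8 in the mixture. The 5 B cell genes lay between 14.6 and 25.6 CPM and the 5 myeloid genes between 0.356 and 2.06 in all libraries. The NK and erythroid lists stayed under 0.24 CPM. The 4 dendritic cell genes summed to 4.76 to 4.95 CPM in Mock and 21.0 to 21.7 in IL12, nearly all of it from Xcr1, while Siglech was at 0 counts in every group and Flt3 under 0.2 CPM. These sums move with the groups, and their part in the results below was not tested. In bulk RNA, fewer cells of a type and less RNA per cell cannot be told apart.

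To see how far the whole programme moved, each group was compared with Mock in 1 edgeR quasi-likelihood fit over all 10 libraries, and p-values were adjusted over all tested genes with the Benjamini-Hochberg method. A gene is called higher or lower at an adjusted p under 0.05. With both mRNAs, 31 of the 35 genes were higher than in Mock and 0 were lower, where 63.9% of all tested genes were called, 32% higher and 31.9% lower. Of the 35, 21 were at least 2-fold higher, against 9.13% of all tested genes. The single mRNAs moved fewer members and, at the median, moved them less. Some members went the other way. With IL12, Stc2 (log2 fold change 2.61) and Pck2 (-1.19) moved further from Mock than in the mixture (1.57 and 0.28). IL12 raised 16 and lowered 4 (46.6% of all tested genes were called, 23% higher and 23.6% lower), and DRIL18 raised 14 and lowered 1 (24.3% called, 12.2% higher and 12.1% lower). The median log2 fold change of the members was 1.31 in the mixture, 0.30 in IL12 and 0.19 in DRIL18, while the median over all tested genes lay between -0.0065 and 0.0043 in these comparisons. These comparisons share the Mock libraries. Both mixture libraries stood above all 8 other libraries for 28 of the 35 genes, where 25% of all tested genes did, and below all of them for 0. The remaining 7 were Ddit3, Cebpb, Cebpg, Trib3, Phgdh, Slc38a2 and Stc2. Nupr1, Aldh1l2, Cth, Cbs and Slc7a11 had enough reads for the test only because of the mixture libraries, so they could hardly fail to differ there. All 5 are among the 28. Without these 5, the mixture was higher for 26 of 30, with 16 at least 2-fold higher, and the median log2 fold change was 1.06 in the mixture, 0.33 in IL12 and 0.17 in DRIL18. The labels do not explain the mark bis on some library columns. It stands on both mixture libraries, on no Mock library and on replicate 2 of DRIL18 and IL12. Its effect was therefore estimated within DRIL18 and IL12 alone, where it equals the replicate number. In mixture against Mock, the mark and the mRNAs cannot be fully told apart. With the mark as a covariate, Psph, Pycr1, Pck2 and Slc1a5 were no longer called in the mixture (adjusted p = 0.339, 0.294, 0.114 and 0.111).

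**Figure D1:**
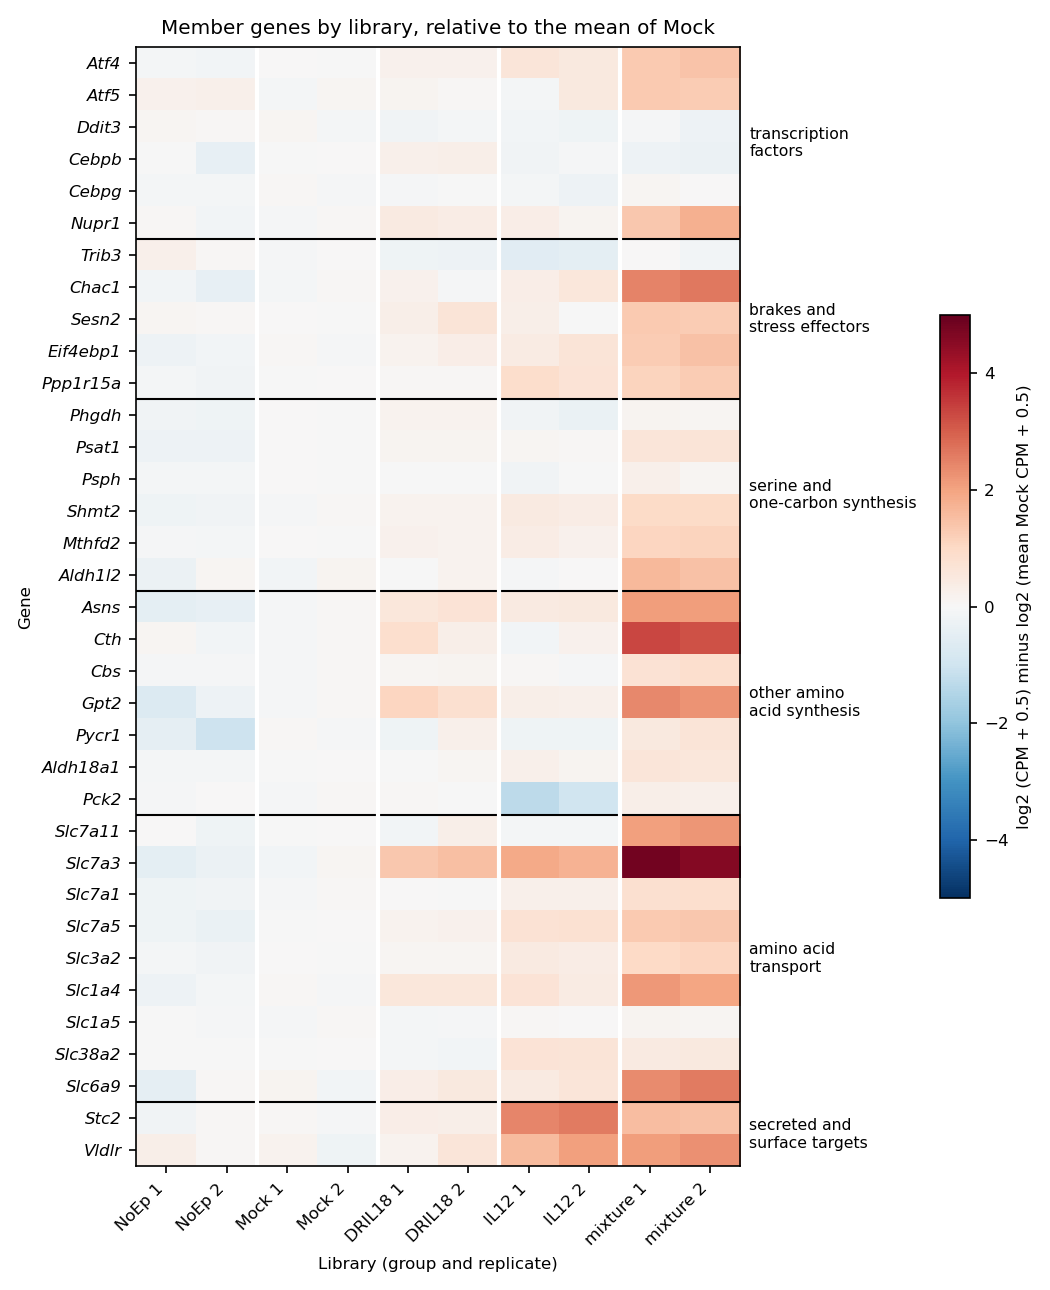
Level of each of the 35 genes (rows, grouped by role) in each of the 10 libraries (columns), as log2 of CPM plus 0.5 relative to the mean of Mock, in colour. The mixture columns are red for most genes, with Slc7a3, Cth and Chac1 the darkest, while Ddit3, Cebpb, Cebpg, Trib3, Phgdh and Slc1a5 stay pale in the mixture, and Pck2 is blue only in the IL12 columns.

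Among the transcription factors, Atf4 itself rose step by step with the single mRNAs and the mixture, Atf5 and Nupr1 rose in the mixture, and the C/EBP-type factors Ddit3, Cebpb and Cebpg were not called higher than Mock in any group. Atf4 (ENSMUSG00000042406.9) stood at 135 and 130.0 CPM in NoEp, 145 and 142 in Mock, 168 and 165 in DRIL18, 219.8 and 203 in IL12 and 362 and 383 in the mixture. No pair of these groups overlaps, and both mixture libraries are far above both IL12 libraries. Against Mock, the log2 fold change was 0.21 with DRIL18 (adjusted p = 0.000277), 0.56 with IL12 (adjusted p = 1.32e-12) and 1.37 with both (2.59-fold, ± 0.041 SE, adjusted p = 4.71e-23). IL12 was also above DRIL18 (0.35 ± 0.042 SE, adjusted p = 4.09e-08). Atf5, a relative of ATF4 that is likewise controlled by translation, stood at 5.75 and 5.85 CPM in NoEp, 4.47 and 5.18 in Mock, 5.31 and 5.04 in DRIL18, 4.41 and 6.92 in IL12 and 12.6 and 12.4 in the mixture. Only the mixture was clear of the other groups (1.37 ± 0.14 SE, adjusted p = 7.75e-10), and the IL12 libraries differed so much from each other that Atf5 passed against Mock without IL12 replicate 1 (0.53, adjusted p = 0.00731). Nupr1, a small stress-induced chromatin protein, had 4 counts over both NoEp libraries, 5 in Mock, 18 in DRIL18, 11 in IL12 and 83 in the mixture. The ratio of mixture to Mock from these counts was 16.8 (95% counting interval 6.93 to 53.2), and its adjusted p was 1.62e-06. Nupr1 was tested only because of the mixture libraries, so this call was nearly fixed in advance.

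Ddit3, which encodes the stress factor CHOP and often follows ATF4, was not called against Mock in any group. It stood at 13.2 and 12.7 CPM in NoEp, 13.0 and 11.3 in Mock, 10.6 and 11.3 in DRIL18, 11.1 and 10.4 in IL12 and 11.7 and 10.1 in the mixture, and the groups overlap. Its log2 fold change in the mixture was -0.16 (95% interval -0.37 to 0.053, adjusted p = 0.186), so a rise of the size seen for Atf4 lies outside the interval. Cebpb, which encodes a C/EBP partner of ATF4, was at 4.67 and 4.73 CPM in Mock and 3.85 and 3.71 in the mixture (-0.31, adjusted p = 0.0942), and lower in the mixture than in DRIL18 (-0.63 ± 0.16 SE, adjusted p = 0.00112). Both DRIL18 libraries, at 5.77 and 5.92 CPM, lay above both Mock libraries, but the difference did not pass (0.31, 95% interval -0.00096 to 0.63, adjusted p = 0.15). Cebpg, another such partner, lay between 44.0 CPM in IL12 and 51.4 in the mixture on average. It fell with IL12 (-0.18, adjusted p = 0.0137), but this call was lost without Mock replicate 1 (-0.12, adjusted p = 0.194) and without IL12 replicate 2 (-0.11, adjusted p = 0.23).

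Genes that restrain growth or end the stress response also differed among themselves. Chac1, Sesn2, Eif4ebp1 and Ppp1r15a were at least 2-fold higher in the mixture than in Mock, while Trib3 was not. Chac1 encodes an enzyme that breaks down glutathione. Its levels were 0.471 and 0.306 CPM in NoEp, 0.509 and 0.625 in Mock, 0.750 and 0.531 in DRIL18, 0.849 and 1.07 in IL12 and 5.49 and 6.05 in the mixture, so the mixture alone stands apart (3.34 ± 0.27 SE, adjusted p = 3.07e-12; 10.1-fold), and neither DRIL18 (adjusted p = 0.786) nor IL12 (adjusted p = 0.0676) passed. Sesn2 encodes a leucine sensor that restrains mTORC1, and it stood at 22 and 21.1 CPM in NoEp, 20.9 and 20.1 in Mock, 25.5 and 32.1 in DRIL18, 25.2 and 19.9 in IL12 and 51.4 and 50.4 in the mixture. The mixture libraries agree closely (1.31 ± 0.087 SE, adjusted p = 1.93e-14), whereas the DRIL18 libraries differ from each other and still lie above both Mock libraries (0.49 ± 0.091 SE, adjusted p = 0.000114). With IL12 the value was 0.14 (adjusted p = 0.244), and it passed without IL12 replicate 2 (0.30, adjusted p = 0.0121).

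Eif4ebp1, whose product 4E-BP1 holds back cap-dependent translation, was measured at 16.1 and 17.7 CPM in NoEp, 20.3 and 18.6 in Mock, 22.2 and 24.5 in DRIL18, 26.0 and 30.6 in IL12 and 47.2 and 55.0 in the mixture. It increased from Mock through the single mRNAs to the mixture (1.39 ± 0.082 SE, adjusted p = 1.05e-15). The small rise with DRIL18 (0.26, adjusted p = 0.0266) was lost without Mock replicate 2 (0.21, adjusted p = 0.234) and without DRIL18 replicate 2 (0.19, adjusted p = 0.275). Ppp1r15a, which encodes GADD34, the subunit that directs a phosphatase back to eIF2, stood at 12.2 and 11.7 CPM in NoEp, 13.0 and 13.2 in Mock, 13.7 and 13.9 in DRIL18, 24.9 and 21.3 in IL12 and 28.7 and 32.6 in the mixture. Most of its rise was present with IL12 alone (0.81 ± 0.089 SE, adjusted p = 5.41e-09), and the mixture stood higher again (0.41 against IL12, adjusted p = 9e-05). Trib3 encodes a pseudokinase that inhibits AKT and ATF4. It was at 21.5 and 18.9 CPM in NoEp, 17.6 and 18.6 in Mock, 15.6 and 15.3 in DRIL18, 12.2 and 12.7 in IL12 and 18.5 and 16.5 in the mixture: lowest in IL12 (-0.54 ± 0.091 SE, adjusted p = 1.08e-05) and at the Mock level in the mixture (-0.050, 95% interval -0.23 to 0.13, adjusted p = 0.633). Against IL12, the mixture was higher (0.49 ± 0.092 SE, adjusted p = 3.49e-05).

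The enzymes of serine synthesis and of mitochondrial one-carbon metabolism, which turns serine into formate for nucleotide synthesis, were all 6 higher in the mixture, and 2 of them, Mthfd2 and Aldh1l2, by at least 2-fold. Of these, Aldh1l2 was tested only because of the mixture libraries, so its call was nearly fixed in advance. Phgdh, the first enzyme of serine synthesis, stood at 279.7 and 276 CPM in NoEp, 323 and 315 in Mock, 357 and 365 in DRIL18, 279 and 255 in IL12 and 347 and 341 in the mixture. DRIL18 raised it slightly (0.18 ± 0.038 SE, adjusted p = 0.000744), IL12 lowered it (-0.26 ± 0.039 SE, adjusted p = 1.96e-06), and the mixture lay near Mock (0.11, adjusted p = 0.0152), a call lost without Mock replicate 2 (0.094, adjusted p = 0.113) and without mixture replicate 1 (0.097, adjusted p = 0.0825). Psat1, the next enzyme, was at 161 and 159 CPM in NoEp, 194 and 185 in Mock, 209.7 and 209.8 in DRIL18, 203 and 196 in IL12 and 289.9 and 299 in the mixture and rose in the mixture (0.64 ± 0.037 SE, adjusted p = 1.1e-15). Psph, the last, lay between 33.3 CPM in IL12 and 40.7 in the mixture on average. Its rise in the mixture (0.19, adjusted p = 0.0126) was lost without Mock replicate 1, Mock replicate 2 or mixture replicate 1 (adjusted p = 0.0604, 0.0507 and 0.238; 0.11 without the last).

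Shmt2, which splits serine in the mitochondrion, stood at 187 and 189.7 CPM in NoEp, 208 and 224 in Mock, 244 and 242 in DRIL18, 293 and 281 in IL12 and 419.6 and 421 in the mixture. The groups follow each other without overlap from NoEp up to the mixture, which was 1.95-fold above Mock (0.96 ± 0.038 SE, adjusted p = 5e-20). Mthfd2, the mitochondrial folate enzyme that follows it, was at 90.4 and 88.8 CPM in NoEp, 94.8 and 94.8 in Mock, 109.8 and 106 in DRIL18, 124 and 110.4 in IL12 and 202 and 205 in the mixture, and here too the mixture was clearly the highest (1.10 ± 0.045 SE, adjusted p = 1.22e-19). Aldh1l2, a mitochondrial folate dehydrogenase, was barely read outside the mixture: 8 counts over both Mock libraries, 11 in DRIL18, 7 in IL12 and 89 in the mixture. The ratio of mixture to Mock was 11.3 (95% counting interval 5.49 to 26.9), with an adjusted p of 1.6e-05.

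The group for other amino acid synthesis holds 7 genes, among them Pck2, whose product makes phosphoenolpyruvate and not an amino acid. All 7 were higher in the mixture than in Mock, and 4 of them, Asns, Cth, Cbs and Gpt2, by at least 2-fold. Of these, Cth and Cbs were tested only because of the mixture libraries, so their calls were nearly fixed in advance. Asns encodes asparagine synthetase, a classic ATF4 target. It stood at 19.3 and 20.5 CPM in NoEp, 26.3 and 28.9 in Mock, 40.7 and 44.4 in DRIL18, 38.2 and 39.4 in IL12 and 118 and 119.9 in the mixture. Each single mRNA gave a smaller rise (DRIL18 0.62, adjusted p = 3.09e-09; IL12 0.49, adjusted p = 9.63e-08; IL12 against DRIL18 -0.13, adjusted p = 0.0819), and the mixture libraries were 4.31-fold above Mock (2.11 ± 0.058 SE, adjusted p = 3.92e-24). Gpt2, the mitochondrial alanine transaminase, was at 0.816 and 1.28 CPM in NoEp, 1.5 and 1.70 in Mock, 3.95 and 3.15 in DRIL18, 2.09 and 1.98 in IL12 and 10.5 and 9.40 in the mixture. DRIL18 was above Mock (1.15 ± 0.21 SE, adjusted p = 7.38e-05), IL12 did not pass (0.35, adjusted p = 0.22), and the mixture was highest (2.63 ± 0.19 SE, adjusted p = 1.07e-13).

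The transsulfuration enzymes, which make cysteine from methionine by way of homocysteine, had few counts without both mRNAs, and Cbs stayed low with both. Cth, the second of them, had 7 counts in NoEp, 8 in Mock, 30 in DRIL18, 9 in IL12 and 371 in the mixture, or 5.75 and 5.16 CPM in the mixture libraries. The ratio of mixture to Mock was 47 (95% counting interval 23.6 to 109.8) and the adjusted p 6.74e-13. The rise with DRIL18 (1.88, adjusted p = 0.0206) was lost without Mock replicate 1 (1.53, adjusted p = 0.173), without the other Mock library (2.32, adjusted p = 0.0541) and without DRIL18 replicate 1 (1.17, adjusted p = 0.344). Cbs, the first enzyme of the pathway, had 26 counts in the mixture and 1 in Mock, a ratio of 26.4 (95% counting interval 4.33 to 1081) with an adjusted p of 0.000635. Its level in the mixture libraries was only 0.350 and 0.415 CPM. Cbs had 4 counts in DRIL18, 1 in IL12 and 0 in NoEp.

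The proline enzymes changed less. Aldh18a1, which starts proline synthesis, was at 98.4 and 102 CPM in Mock, 118 and 111 in IL12 and 155 and 149 in the mixture (0.60 ± 0.046 SE, adjusted p = 5.9e-13). Pycr1, which ends it, was at 3.57 and 3.24 CPM in Mock and 4.99 and 5.66 in the mixture (0.64 ± 0.19 SE, adjusted p = 0.00428). Pck2, the mitochondrial enzyme that makes phosphoenolpyruvate from oxaloacetate, had a pattern of its own, at 22.7 and 23.9 CPM in NoEp, 23.1 and 24.7 in Mock, 25.1 and 23.4 in DRIL18, 9.28 and 11.7 in IL12 and 29.5 and 28.3 in the mixture. Both IL12 libraries lie below all the others (-1.19 ± 0.091 SE, adjusted p = 1.9e-12), and the other groups lie between 22.7 and 29.5 CPM. DRIL18 did not pass against Mock (0.021, 95% interval -0.14 to 0.18). In the mixture the gene was slightly above Mock (0.28, adjusted p = 0.00301), a call lost without Mock replicate 1 (0.22, adjusted p = 0.0583), and 2.76-fold above IL12 (1.46 ± 0.089 SE, adjusted p = 5.56e-15).

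**Figure D2:**
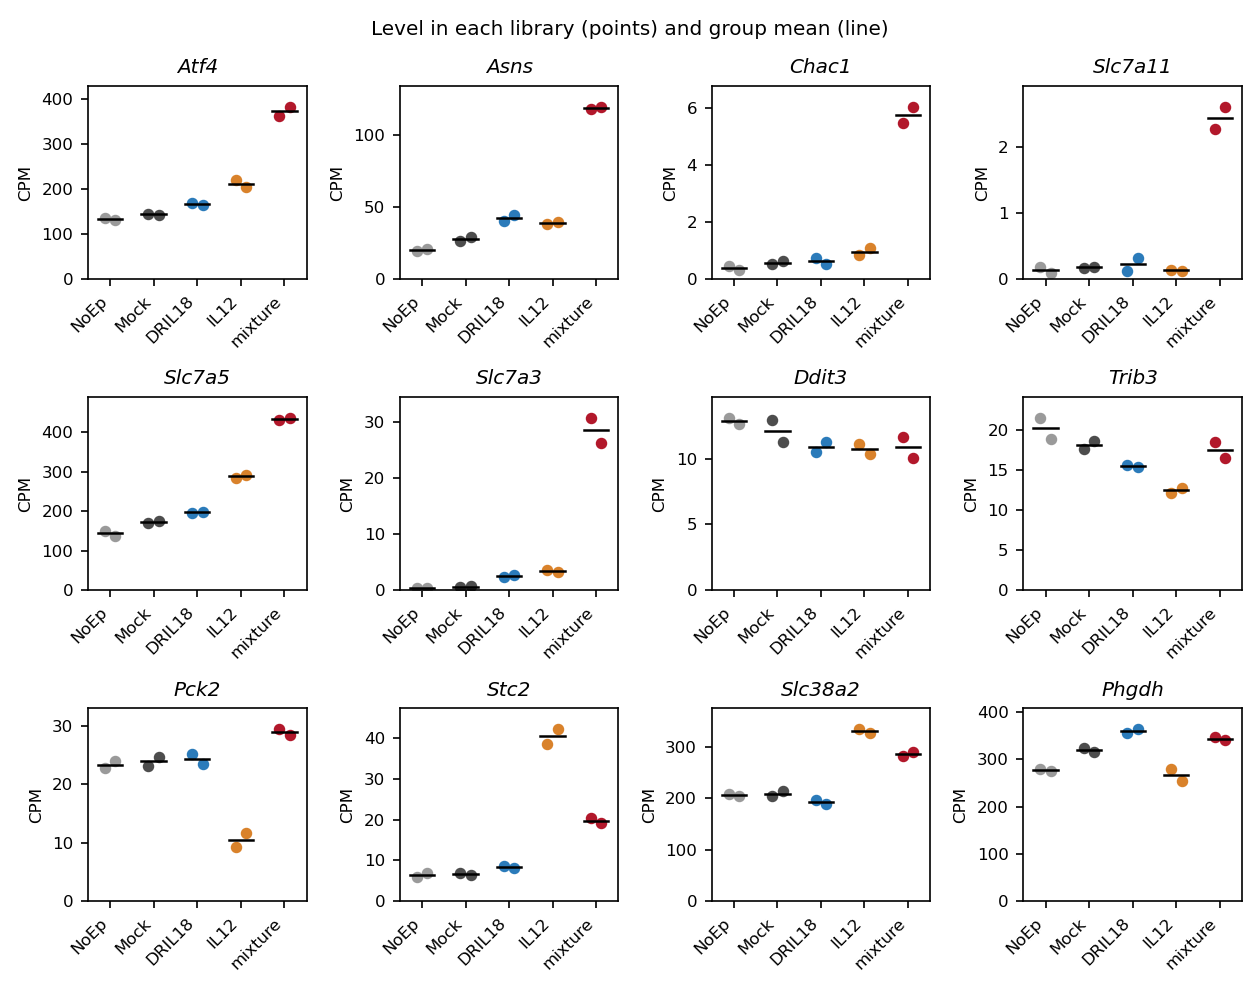
CPM (vertical axis, from 0) of 12 of the genes in the 5 groups, with 1 point per library and a line at the group mean. Atf4, Asns, Chac1, Slc7a11, Slc7a5 and Slc7a3 are highest in the mixture, Ddit3 and Trib3 are not, and Pck2, Phgdh and Trib3 are lowest on average and Stc2 and Slc38a2 highest in IL12.

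All 9 amino acid transporters were higher in the mixture than in Mock, 6 of them at least 2-fold, and 7 of the 9 were also higher with IL12 alone. One of the 9, Slc7a11, was tested only because of the mixture libraries, so its call there was nearly fixed in advance. Slc7a3, a carrier of arginine and lysine, showed the largest difference. It stood at 0.283 and 0.390 CPM in NoEp, 0.509 and 0.684 in Mock, 2.31 and 2.59 in DRIL18, 3.56 and 3.18 in IL12 and 30.8 and 26.2 in the mixture. Neither single mRNA group overlaps Mock (DRIL18 2.04 ± 0.24 SE, adjusted p = 1.08e-07; IL12 2.49 ± 0.23 SE, adjusted p = 1.49e-10), and the mixture was 47.6-fold above it (5.57 ± 0.17 SE, adjusted p = 8.42e-23). Slc7a1, the constitutive carrier of the same amino acids, was at 124 and 126 CPM in NoEp, 137 and 146 in Mock, 142 and 139 in DRIL18, 169 and 170.2 in IL12 and 246 and 252 in the mixture, with a smaller rise in the mixture (0.82 ± 0.039 SE, adjusted p = 7.3e-18).

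Slc7a5 encodes LAT1, the leucine carrier that T cells need for mTORC1 activity, and Slc3a2 its partner chain CD98. Slc7a5 was at 149.7 and 137 CPM in NoEp, 169 and 176 in Mock, 195 and 199 in DRIL18, 284 and 293 in IL12 and 432 and 438 in the mixture, so that every group is separate from the next. It was 2.52-fold above Mock in the mixture (1.33 ± 0.040 SE, adjusted p = 3.75e-23) and 1.67-fold with IL12 (0.74 ± 0.040 SE, adjusted p = 4.59e-16). Slc3a2 was at 109.9 and 108 CPM in Mock, 117 and 117 in DRIL18, 148 and 143 in IL12 and 216 and 229 in the mixture. It rose with IL12 (0.42 ± 0.042 SE, adjusted p = 1e-09) and in the mixture (1.03 ± 0.041 SE, adjusted p = 7.66e-20), and DRIL18 did not pass (0.099, adjusted p = 0.0913).

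Slc7a11 encodes xCT, which brings in cystine for glutathione, and it was read mainly in the mixture. Counts over both libraries were 9 in NoEp, 12 in Mock, 15 in DRIL18, 8 in IL12 and 166 in the mixture, and the ratio of mixture to Mock was 14.0 (95% counting interval 7.82 to 27.7) with an adjusted p of 2.23e-08. Even so its level was low, at 2.28 and 2.61 CPM. Slc6a9, the glycine carrier GlyT1, went from 0.283 and 0.149 CPM in Mock to 3.21 and 3.80 in the mixture (3.99 ± 0.41 SE, adjusted p = 6.54e-10). Its rise with IL12 (1.31, adjusted p = 0.0414) rests on 15 counts in Mock and 34 in IL12. That call was lost without Mock replicate 2 (0.94, adjusted p = 0.245), IL12 replicate 1 (1.45, 0.0563), IL12 replicate 2 (1.16, 0.15) or either mixture library (1.31 for both, 0.053 and 0.0561).

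Slc1a4, a carrier of alanine, serine and cysteine, stood at 2.10 and 2.42 CPM in NoEp, 2.72 and 2.53 in Mock, 4.07 and 4.07 in DRIL18, 4.57 and 3.68 in IL12 and 13.6 and 11.8 in the mixture. IL12 did not pass against DRIL18 (0.019, 95% interval -0.31 to 0.35), and the mixture was 4.83-fold above Mock (2.27 ± 0.15 SE, adjusted p = 2.34e-14). The rise with DRIL18 (0.63, adjusted p = 0.00582) was lost without Mock replicate 2 (0.58, adjusted p = 0.0568) and that with IL12 (0.65, adjusted p = 0.00232) without IL12 replicate 1 (0.49, adjusted p = 0.0553). The glutamine carrier Slc1a5 (ASCT2) differed little, with 225 and 239 CPM in Mock and 253 and 245 in the mixture (0.10, adjusted p = 0.0179), a call lost without Mock replicate 1 (0.058, adjusted p = 0.31) and mixture replicate 1 (0.082, adjusted p = 0.134). Slc38a2, the SNAT2 carrier of small neutral amino acids, was at 209 and 205 CPM in NoEp, 204 and 213 in Mock, 197 and 189 in DRIL18, 335 and 328 in IL12 and 282 and 289 in the mixture. IL12 raised it most (0.67 ± 0.037 SE, adjusted p = 1.07e-15), and the mixture lay below IL12 (-0.22 ± 0.037 SE, adjusted p = 9.32e-06) and above Mock (0.45 ± 0.037 SE, adjusted p = 3.89e-12). A small fall with DRIL18 (-0.11, adjusted p = 0.0317) was lost without Mock replicate 2 (-0.076, adjusted p = 0.33) and DRIL18 replicate 2 (-0.083, adjusted p = 0.284).

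The remaining members, a secreted glycoprotein gene and a lipoprotein receptor gene, followed IL12. Stc2, which encodes the hormone-like protein stanniocalcin 2, was at 5.81 and 6.93 CPM in NoEp, 6.91 and 6.37 in Mock, 8.54 and 8.16 in DRIL18, 38.7 and 42.4 in IL12 and 20.3 and 19.2 in the mixture. IL12 alone was 6.10-fold above Mock (2.61 ± 0.093 SE, adjusted p = 1.15e-20), and the mixture was lower than IL12 (-1.04 ± 0.081 SE, adjusted p = 2.02e-12) and still above Mock (1.57 ± 0.099 SE, adjusted p = 5.44e-15). Vldlr, the receptor for very low density lipoprotein, had 10 counts in Mock, 24 in DRIL18, 112 in IL12 and 167 in the mixture. It rose with IL12 (3.60 ± 0.48 SE, adjusted p = 2.29e-07) and in the mixture (4.05 ± 0.46 SE, adjusted p = 4.41e-09), and the mixture did not pass against IL12 (0.46, 95% interval -0.19 to 1.10, adjusted p = 0.242).

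To ask whether the cytokines together did more than their single effects added up, the mixture's log2 fold change over Mock was set against the sum of those of DRIL18 and IL12. On this scale 27 of the 35 genes were called higher than the sum and 1 lower, where 31.6% of all tested genes were called, 14.6% higher and 17.1% lower. For 8 of the 27 the level was at least 2-fold above that sum, against 2.36% of all tested genes. Leaving out the 5 genes tested only because of the mixture libraries, 24 of 30 were higher, 5 of them at least 2-fold. A level above the sum need not be a rise over Mock. Trib3 (sum -0.77, mixture value -0.050) and Cebpg (sum -0.21, mixture value 0.052) were called above the sum, but neither was called against Mock in the mixture. Chac1 had a sum of 0.94 and a mixture value of 3.34 (difference 2.40 ± 0.45 SE, adjusted p = 9.29e-05). For Pck2 the sum was -1.17 and the mixture value 0.28 (difference 1.44 ± 0.12 SE, adjusted p = 3.29e-11). Asns (0.99 ± 0.083 SE, adjusted p = 3.96e-11) and Atf4 (0.60 ± 0.058 SE, adjusted p = 8.29e-10) exceeded the sum by less. Slc7a11, 1 of the 5 genes left out above, had a sum of -0.11 and a mixture value of 3.78 (difference 3.89 ± 0.88 SE, adjusted p = 0.000866). Atf5 (1.03), Gpt2 (1.13) and Slc1a4 (0.99) also exceeded it. Cth (3.33) and Slc7a3 (1.04) did so except without Mock replicate 2 (2.89, adjusted p = 0.12 for Cth; 0.82, adjusted p = 0.166 for Slc7a3). The excess of Aldh1l2 (3.05, adjusted p = 0.0394) was lost without any 1 of 7 libraries, namely Mock replicate 2 (2.05, adjusted p = 0.439) and either library of DRIL18, IL12 or the mixture (2.69 to 3.51, adjusted p from 0.0508 to 0.121). Excesses of Cebpg, Phgdh, Psph, Pycr1, Ppp1r15a and Slc1a5 were also called, but each depended on single libraries. Cebpg (0.26) was lost without Mock replicate 1, DRIL18 replicate 1, IL12 replicate 2 or mixture replicate 1, and Phgdh (0.19) without Mock replicate 1, DRIL18 replicate 1 or IL12 replicate 2. Psph (0.30) was lost without IL12 replicate 1 or mixture replicate 1, and Pycr1 (0.86) without Mock replicate 1, DRIL18 replicate 1 or mixture replicate 2. Ppp1r15a (0.34) was lost without either Mock or DRIL18 library, IL12 replicate 2 or mixture replicate 2. Slc1a5 (0.14) was lost without Mock replicate 2, either DRIL18 library, IL12 replicate 2 or mixture replicate 1. Stc2 was the only member called below the sum (-1.37 ± 0.14 SE, adjusted p = 1.58e-09), and Ddit3, Cebpb, Nupr1, Cbs, Slc38a2, Slc6a9 and Vldlr did not pass.

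**Figure D3:**
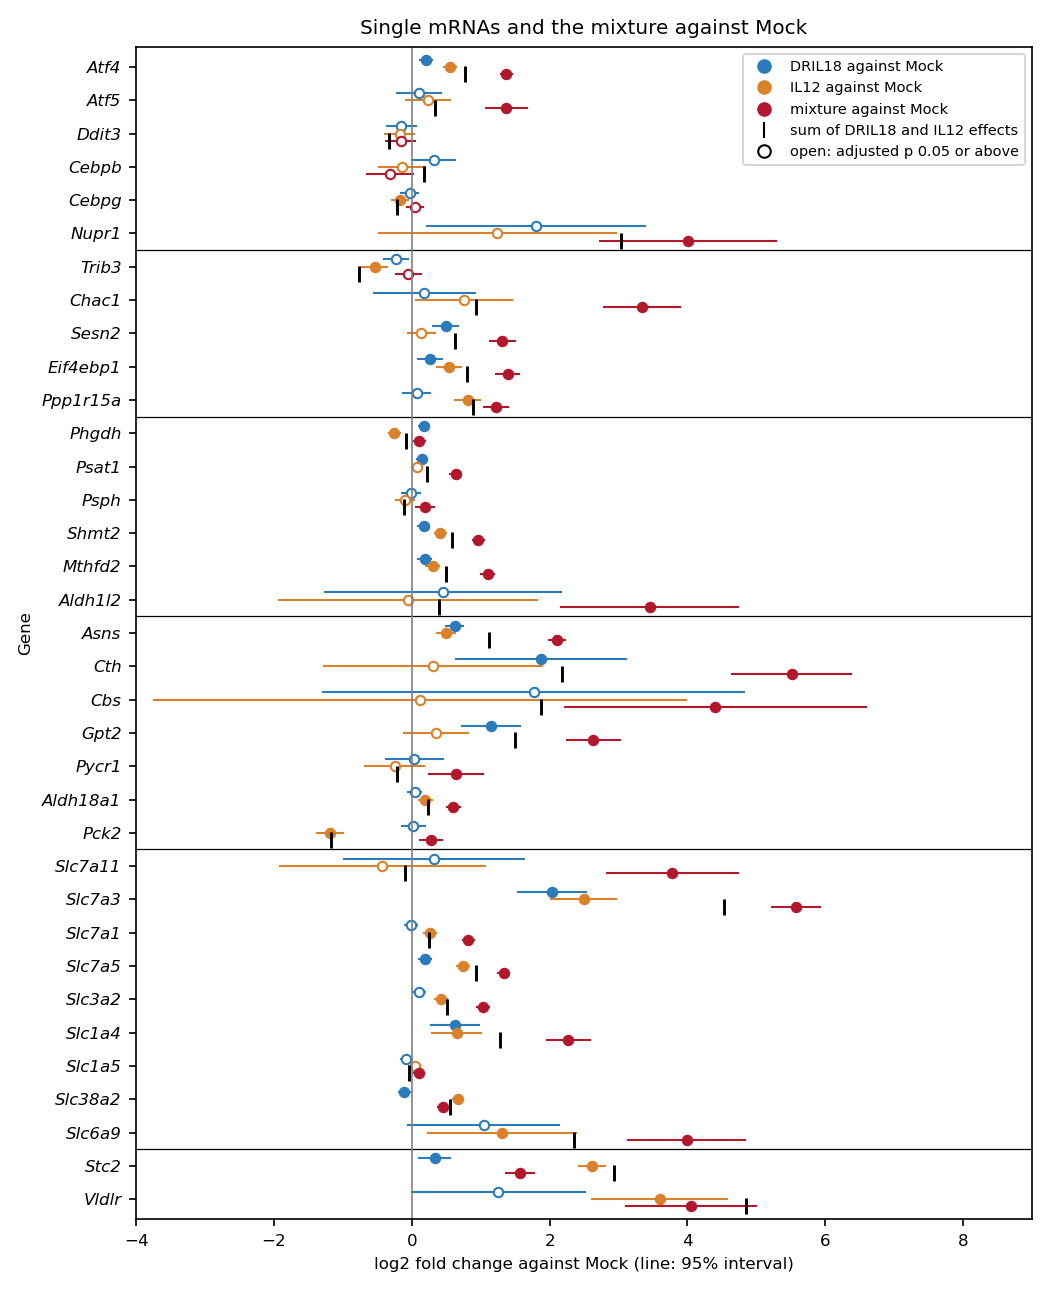
Log2 fold change against Mock (horizontal axis, with 95% intervals) of each gene for DRIL18, IL12 and the mixture, filled where called; the black tick is the sum of the single effects. For most genes the mixture point lies to the right of the tick, and for Stc2 it lies to the left. Points of Cbs, with 1 count in Mock, are set partly by the fit's prior count.

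Seen from each single mRNA, adding DRIL18 to IL12 raised 29 of the 35 genes and lowered Slc38a2 and Stc2, where 52.2% of all tested genes were called, 25.8% higher and 26.3% lower. Adding IL12 to DRIL18 raised 30 and lowered Cebpb, against 57.3% called, 28.3% higher and 29% lower. The median log2 fold change was 0.79 in the first and 1.13 in the second, and the median over all tested genes was -0.0080 and -0.013. Without the 5 genes tested only because of the mixture libraries, 24 and 25 of 30 were higher, with medians of 0.58 and 0.87. The single mRNAs also differed from each other, with 14 genes higher in IL12 and 7 higher in DRIL18, against 39.5% of all tested genes called, 18.9% higher and 20.6% lower. Transport genes were higher in IL12 for 6 of 9 and lower for 0, led by Slc38a2 (0.78 ± 0.037 SE, adjusted p = 2.61e-17) and Slc7a5 (0.55 ± 0.040 SE, adjusted p = 6.61e-13). Of the 7 genes grouped under other amino acid synthesis, 3 were higher in DRIL18 and 1, Aldh18a1 (0.15), was higher in IL12. Higher in DRIL18 were Pck2 (-1.21 ± 0.090 SE, adjusted p = 1.44e-12) and Gpt2 (-0.80 ± 0.20 SE, adjusted p = 0.00179, and -0.63 without DRIL18 replicate 1). The third was 1 of the 5 genes tested only because of the mixture libraries. Phgdh was also higher in DRIL18 (-0.43 ± 0.039 SE, adjusted p = 8.66e-11).

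The electroporated Mock cells were also compared with the NoEp cells, which were not electroporated. Mock RNA was extracted 24 h after electroporation, and the labels give no separate time for NoEp, so electroporation and time in culture cannot be told apart. In Mock, 7 of the 35 genes were higher and 0 lower than in NoEp, where 6.98% of all tested genes were called, 3.34% higher and 3.64% lower. They were Asns (0.47 ± 0.068 SE, adjusted p = 5.26e-05), Psat1 (0.25 ± 0.038 SE, adjusted p = 0.000132), Slc7a5 (0.27 ± 0.041 SE, adjusted p = 0.000133), Phgdh (0.20 ± 0.039 SE, adjusted p = 0.0014), Shmt2 (0.19 ± 0.039 SE, adjusted p = 0.00206), Slc7a1 (0.18 ± 0.040 SE, adjusted p = 0.00542) and Pycr1 (0.87 ± 0.22 SE, adjusted p = 0.0139). Asns, for example, stood at 19.3 and 20.5 CPM in NoEp and 26.3 and 28.9 in Mock, which do not overlap. Some library columns carry a mark, bis, which the labels do not explain, and it stands on both NoEp and on no Mock library. With the mark as a covariate 3 genes were higher, Asns (0.56, adjusted p = 0.00123), Psat1 (0.22, adjusted p = 0.0371) and Slc7a5 (0.30, adjusted p = 0.00592). Pycr1 was also lost without NoEp replicate 2 (0.53, adjusted p = 0.349), without Mock replicate 1 (0.80, adjusted p = 0.152) and without the other Mock library (0.93, adjusted p = 0.0648), Phgdh without Mock replicate 1 (0.18, adjusted p = 0.0592), and Shmt2 (0.14, adjusted p = 0.114) and Slc7a1 (0.13, adjusted p = 0.161) without Mock replicate 2.

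Other genes of the pathway were read from 6 related lists that hold 100 genes, of which 95 were tested. Their counts are to be read against the shares of all tested genes called, 63.9% in the mixture, 46.6% in IL12, 24.3% in DRIL18 and 6.98% in Mock against NoEp. Cytosolic tRNA synthetases, which charge tRNA with amino acids, were mostly higher in all 3 cytokine groups, and in part already in Mock. In the mixture 18 of 20 were higher than in Mock and 0 lower, with a median of 0.78, against 19 and 0 with IL12 (median 0.34) and 17 and 0 with DRIL18 (median 0.19). Mock against NoEp had 9 higher and 0 lower (median 0.12). Cars was at 49.6 and 48.9 CPM in Mock and 107 and 108 in the mixture (1.13 ± 0.049 SE, adjusted p = 5.59e-19), and Nars at 163 and 161 and 348 and 352 (1.11 ± 0.037 SE, adjusted p = 5.55e-22). Wars was read at 119.6 and 121 CPM in Mock, 190.2 and 189 in DRIL18, 128 and 126 in IL12 and 134 and 136 in the mixture, so that DRIL18 alone gave the highest level (0.66 ± 0.038 SE, adjusted p = 2.32e-14). Wars is also known as a target of interferon gamma. Qars (-0.012, adjusted p = 0.812) and Vars (-0.035, adjusted p = 0.42) did not pass in the mixture.

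Chaperones and sensors of the ER, which belong to a neighbouring branch of the stress response, moved most in the mixture. Of 17 genes 14 were higher than in Mock and 0 lower (median 0.71), against 4 higher and 1 lower with IL12 (median 0.025) and 10 and 0 with DRIL18 (median 0.18). Mock against NoEp had 7 higher and 0 lower. For 16 of the 17 the mixture was called above the sum of the single effects, where 14.6% of all tested genes were. Ern1, which encodes the ER sensor IRE1, had the largest rise, at 13.0 and 12.2 CPM in NoEp, 12.5 and 13.9 in Mock, 17.7 and 19.0 in DRIL18, 15.0 and 14.7 in IL12 and 78.3 and 82.8 in the mixture (2.61 ± 0.070 SE, adjusted p = 2.81e-24). Hyou1, an ER chaperone, went from 179 and 181 CPM in Mock to 426 and 419 in the mixture (1.23 ± 0.044 SE, adjusted p = 4.19e-21). Xbp1 (0.084, adjusted p = 0.139), which IRE1 splices, did not pass at the level of total counts, which do not show splicing.

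Of 17 genes for eIF2, its kinases and its exchange factor, 11 were higher and 1 lower in the mixture than in Mock (median 0.27). That is 70.6% called, near the share of all tested genes, 63.9%. With IL12 alone 10 were higher and 5 lower, or 88.2% called against 46.6%. Eif2b3, a subunit of the exchange factor eIF2B, rose from 22.1 and 20.6 to 52.6 and 49.3 CPM (1.25 ± 0.066 SE, adjusted p = 5.88e-17), and Eif2s2, the beta subunit of eIF2, from 178 and 175 to 374 and 380.2 (1.10 ± 0.043 SE, adjusted p = 2.95e-20). Among the kinases, Eif2ak3 (PERK, which senses ER stress) stood at 55.5 and 55.8 CPM in NoEp, 57.6 and 58.5 in Mock, 63.6 and 66.4 in DRIL18, 42.5 and 46.1 in IL12 and 112 and 108 in the mixture: IL12 lowered it (-0.39 ± 0.053 SE, adjusted p = 2.86e-07) and the mixture raised it (0.92 ± 0.049 SE, adjusted p = 8.6e-17). Eif2ak4 (GCN2, which senses uncharged tRNA) fell with IL12 (-0.32 ± 0.083 SE, adjusted p = 0.00204) and did not pass in the mixture (0.14, adjusted p = 0.117). The kinases did not all move alike. Eif2ak1 had a log2 fold change over Mock of 0.33 in IL12 cells and -0.061 in mixture cells. For Eif2ak2 the value was 0.31 in DRIL18 cells, against -0.35 for IL12 cells and 0.0024 for mixture cells. Kinase mRNA does not show kinase activity, and Dele1, which relays mitochondrial stress, fell in the mixture (-0.41 ± 0.053 SE, adjusted p = 3.94e-08).

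Of 14 further genes of the folate and methionine cycles, 13 were higher in the mixture and 1, Mtr, lower (median 0.56), against 63.9% of all tested genes called. Mock against NoEp had 7 higher and 0 lower. Slc19a1, the reduced folate carrier, rose from 35.6 and 36.7 to 77.3 and 75.3 CPM (1.08 ± 0.055 SE, adjusted p = 2.79e-17), and Shmt1, the cytosolic counterpart of Shmt2, from 54.9 and 52.7 to 109 and 104 (0.99 ± 0.049 SE, adjusted p = 1.22e-17). Ahcy, which clears the methylation by-product S-adenosylhomocysteine, was highest with IL12 alone, at 334 and 341 CPM against 136 and 138 in Mock and 256 and 264 in the mixture (1.3 ± 0.038 SE, adjusted p = 4.67e-23).

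Of 13 amino acid transporters outside the member list, 2 were higher and 6 lower in the mixture than in Mock (median -0.10). That is 61.5% called, near the 63.9% of all tested genes. Slc43a1, a carrier of large neutral amino acids, fell from 23.9 and 23.6 to 5.31 and 5.99 CPM (-2.07 ± 0.11 SE, adjusted p = 1.03e-16). Slc16a10, the aromatic amino acid carrier TAT1, fell from 8.26 and 9.67 to 1.23 and 1.45 CPM (-2.74 ± 0.19 SE, adjusted p = 3.6e-14). Slc7a6, another partner of Slc3a2, rose from 60.1 and 61.6 to 91.2 and 90.4 CPM (0.58 ± 0.052 SE, adjusted p = 2.36e-11).

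Of 14 other genes reported downstream of ATF4 or CHOP or in the same stress responses, 10 were higher and 2 lower in the mixture (median 0.75), or 85.7% called against 63.9% of all tested genes. Hmox1, haem oxygenase, stood at 2.54 and 2.23 CPM in NoEp, 2.29 and 2.77 in Mock, 4.13 and 4.75 in DRIL18, 9.83 and 10.7 in IL12 and 20.4 and 18.7 in the mixture and rose with each mRNA (2.95 ± 0.13 SE, adjusted p = 1.27e-18 in the mixture). Vegfa went from 6.14 and 5.56 CPM in Mock to 28.8 and 34.1 in IL12 and 42.5 and 42.6 in the mixture (2.86 ± 0.10 SE, adjusted p = 2.44e-21). Atf3, a stress-induced repressor, rose with DRIL18 from 2.35 and 2.77 to 10.2 and 11.4 CPM (2.08 ± 0.16 SE, adjusted p = 1.23e-11). Its log2 fold change against Mock was 0.53 with IL12 and 2.80 in the mixture, whose libraries both stood above every other library. Sesn1, a relative of Sesn2, moved the other way, at 104 and 102 CPM in NoEp, 87.6 and 83.6 in Mock, 78.8 and 78.5 in DRIL18, 67.2 and 66.2 in IL12 and 29.9 and 29.7 in the mixture (-1.52 ± 0.050 SE, adjusted p = 4.66e-22 in the mixture). Map1lc3b, an autophagy gene, fell from 102 and 98.0 to 62.8 and 61.7 CPM (-0.68 ± 0.046 SE, adjusted p = 2.45e-14).

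**Figure D4:**
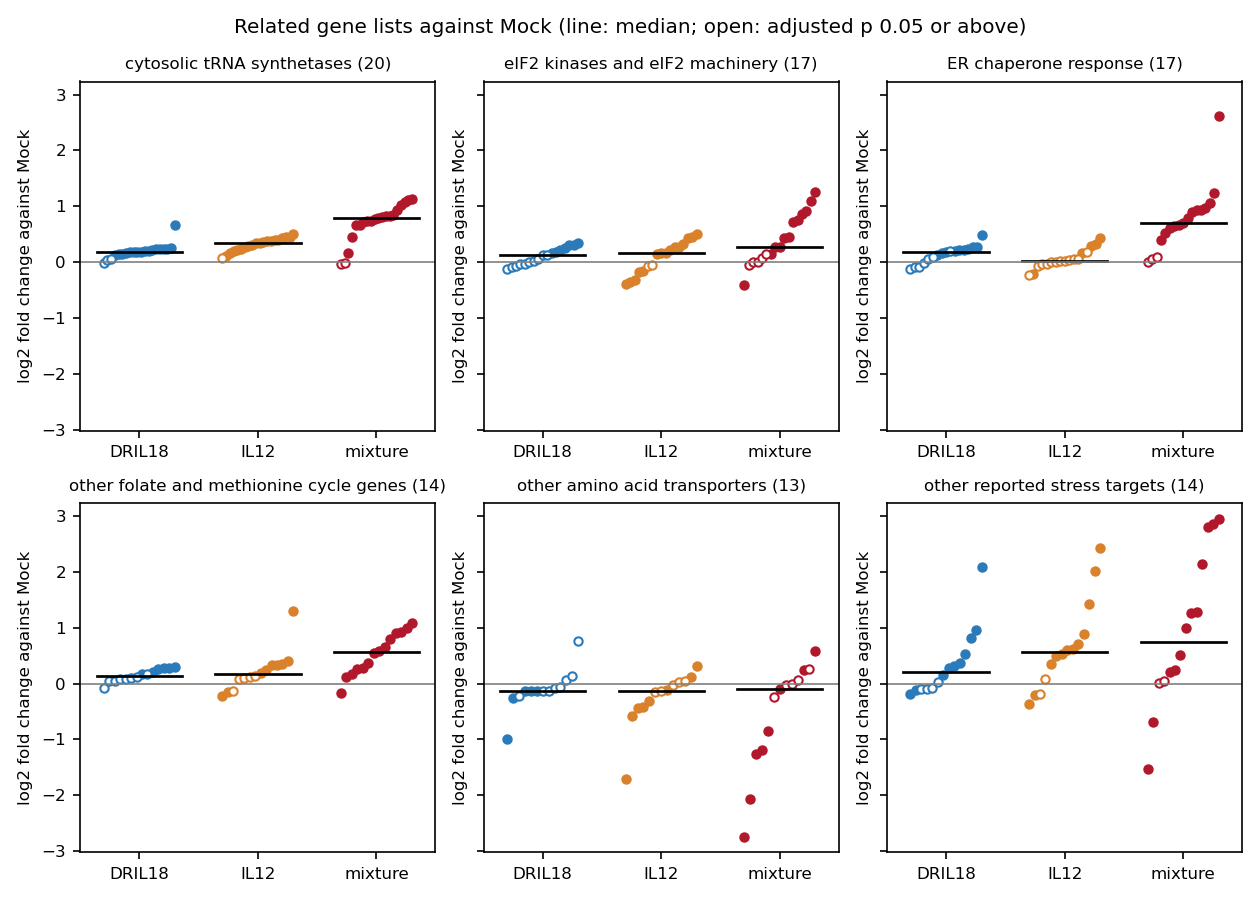
Log2 fold change against Mock of each tested gene of the 6 related lists, for DRIL18, IL12 and the mixture, with filled points where called and a line at the median. In the mixture the medians are highest for the tRNA synthetases (0.78), the other reported stress targets (0.75) and the ER genes (0.71), while the other transporters spread downwards.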

How the data were processed

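Counts per gene and log2 values were taken as the authors deposited them. Per the submitters' processing notes, reads were handled with STAR 2.7.9 on mm39, featureCounts, edgeR and limma; on annotation and strand setting nothing was found in the sources used here. The counts are whole reads of 55359 identifiers. The deposited log2 values are log2 CPM of 13225 genes, and 0 of them differ by more than 1e-10 from voom on the deposited counts, so they were used only for this check. Columns were matched to samples by group name and replicate number, with NE read as NoEp. Symbols came from GENCODE M21 by identifier without version (52083 matched, 3276 did not). The symbol Ddit3 stands on 2 identifiers, and the one with 0 counts was dropped.

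edgeR 4.0.16 (R 4.3.3) fitted 5 group means to 10 libraries with TMM scaling after filterByExpr, leaving 15777 genes. The quasi-likelihood F test was used with Benjamini-Hochberg adjustment over all genes. Common variation between replicates beyond counting was 3.39%. The procedure was tested on simulated data. Alternatives were a replicate block, DESeq2 1.42.0 and its size factors, limma-voom 3.58.1, no filter on low counts, the bis mark, and leaving out each library. Members, lists, tests and alternatives were chosen with earlier results of these data known. Each member is reported by role; from each related list up to 2 genes with the largest rise and 2 with the largest fall past the test and at least 5 CPM were eligible, and a few further genes of those lists were named after their values were seen. Counting intervals cover counting error only.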

Additional observations from a re-analysis of the deposited data

Results flagged for a closer look

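Of the 35 genes, 2 were picked out because an mRNA had opposite called effects depending on whether the other mRNA was present, with the difference itself past the test. Pck2 fell with IL12 in the absence of DRIL18 (-1.19 against Mock) and was higher with IL12 in its presence (0.25 against DRIL18, adjusted p = 0.00656), a difference of 1.44 (adjusted p = 3.29e-11, edgeR quasi-likelihood test). The second of these effects was lost without DRIL18 replicate 2 (0.21, adjusted p = 0.0785) and without mixture replicate 1 (0.23, adjusted p = 0.0533). Stc2 was higher with DRIL18 in the absence of IL12 (0.33 against Mock, adjusted p = 0.026) and lower in its presence (-1.04 against IL12), a difference of -1.37 (adjusted p = 1.58e-09). The first of these effects was lost without Mock replicate 1 (0.39, adjusted p = 0.056), without the other Mock library (0.28, adjusted p = 0.187), without DRIL18 replicate 1 (0.30, adjusted p = 0.147) and without DRIL18 replicate 2 (0.36, adjusted p = 0.067).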

How the results depend on the processing

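No called fold change of the 35 genes changed sign under any of the alternatives. With the bis mark as a covariate, the members higher in Mock than in NoEp fell from 7 to 3 and the members lower in DRIL18 than in Mock from 1 to 0. The covariate also ended calls against Mock for Eif4ebp1, Slc38a2 and Stc2 in DRIL18, for Cebpg and Slc6a9 in IL12 and for Psph, Pycr1, Pck2 and Slc1a5 in the mixture, and for Psph and Pycr1 in the mixture against DRIL18. Over all tested genes, Mock against NoEp then called 172 genes in place of 1102. With DESeq2, its size factors, limma-voom or no filter, counts of members called stayed within 1.5 times. With the replicate block, 31 members were higher and 0 lower in the mixture than in Mock, and of the member calls the block added 1, Cebpg in IL12 against DRIL18 (-0.14, adjusted p = 0.0496), and removed 0. Same-numbered libraries of different groups did not deviate together (correlation of their deviations across genes from -0.036 to 0.057), so the numbers were not taken as pairs. Leaving out 1 library at a time, members higher ranged from 28 to 31 in the mixture, 15 to 16 in IL12 and 9 to 14 in DRIL18 against Mock, and members lower from 0 to 0, 3 to 4 and 0 to 2. Against NoEp, Mock had 4 to 9 higher, with 4 without Mock replicate 2; DRIL18 against Mock had 9 higher without Mock replicate 2. For IL12 against DRIL18 the ranges were 9 to 14 higher and 4 to 7 lower, with 9 and 4 without DRIL18 replicate 1. The interaction ranged from 21 to 28 higher and 1 to 1 lower. Members with few counts (Cbs, Nupr1, Aldh1l2, Cth, Slc7a11) are limited by depth in every group but the mixture.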
